A study of Homo sapiens with 4 samples.

Results

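Wnt ligands, Frizzled receptors and the Wnt-responsive transcription factor LEF1 were examined in MEG-01, an established human line of megakaryoblasts, the precursors of platelet-forming cells. The members were all protein-coding genes of the deposited table whose symbol begins with WNT or FZD, together with LEF1, which gave 5 of the 426 listed genes: WNT5A, FZD3, FZD6, FZD7 and LEF1. Bulk RNA was sequenced in 2 libraries of OGT-depleted cells, titled CR_OGT and described as CRISPR/Cas9-mediated OGT knockdown, and in 2 libraries of WT cells of the same line. OGT transfers the sugar N-acetylglucosamine onto serines and threonines of nuclear and cytosolic proteins. All 4 libraries came from cells in RPMI1640 medium with 10% FBS, without a stated further treatment. The sources used here do not say whether the depleted cells were 1 clone or a pool, or whether WT cells carried Cas9 or a control guide. The labels do not say that replicates were separate cultures, so the spread between them may be technical.

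Wnt ligands are secreted, lipid-modified proteins that bind Frizzled receptors, a family of membrane proteins with a cysteine-rich Wnt-binding domain outside the cell. In the beta-catenin branch, the signal stabilises beta-catenin, which enters the nucleus and activates genes through LEF1 and its TCF relatives. Other branches act without beta-catenin, through planar cell polarity or calcium, and WNT5A is the ligand most often tied to them. In blood formation, Wnt signals are known for their part in stem and progenitor cells, and LEF1 for its part in lymphoid development.

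The table holds only genes that the authors called as changed, so every member was selected on its read counts in OGT-depleted against WT cells, through the authors' adjusted p. Values of that difference below are descriptions of the chosen genes and support nothing; calls of a refit are given at the end only to show how they depend on the processing. Other Wnt and Frizzled genes are not analysed here, and nothing follows about their levels. The highest adjusted p in the authors' deposited table was 0.0497, and that of FZD3, just inside, was 0.0486. The recovered library totals were 18849449 to 19883586 counted reads in OGT-depleted cells and 17643474 to 18265260 in WT cells. The members had 67 to 668 raw reads in OGT-depleted libraries and 157 to 904 in WT libraries. OGT itself had 9124 and 12185 normalized counts (reads divided by a size factor per library) in OGT-depleted cells, against 16012 and 19190 in WT cells. Of 20 fixed megakaryocyte and platelet markers, the platelet tubulin TUBB1 (229% of WT) and the thrombin receptor gene F2R (69.9% of WT) were in the table, in opposite directions. The table holds 3.24% of all tested genes. The other defining markers, such as ITGA2B, GP9 and PF4, are not analysed here.

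All 5 members were lower in OGT-depleted than in WT cells. The groups did not overlap in any of them, nor in any of the 426 listed genes, so that follows from how the table was made. The 3 with the largest falls, WNT5A, FZD6 and FZD7, were at 45.1%, 49.1% and 51.8% of their WT level, while LEF1 and FZD3 kept more of it (63.9% and 69.8%). Their median was 51.8% of WT, against a median of 64.6% over the 178 listed lower genes and 147% over all 426 listed genes. The median WT normalized count was 360 over the members and 1402 over the listed lower genes. The medians of the fall are therefore not matched for depth, and nothing is read from their difference. The authors' deposited table calls 3.24% of about 13154 tested genes, 1.35% lower and 1.89% higher. Presence in the table was part of how the members were chosen, so these shares are background and nothing is read from the members' count. In bulk RNA, fewer cells that express a gene and less of its RNA per cell cannot be told apart.

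**Figure D1:**
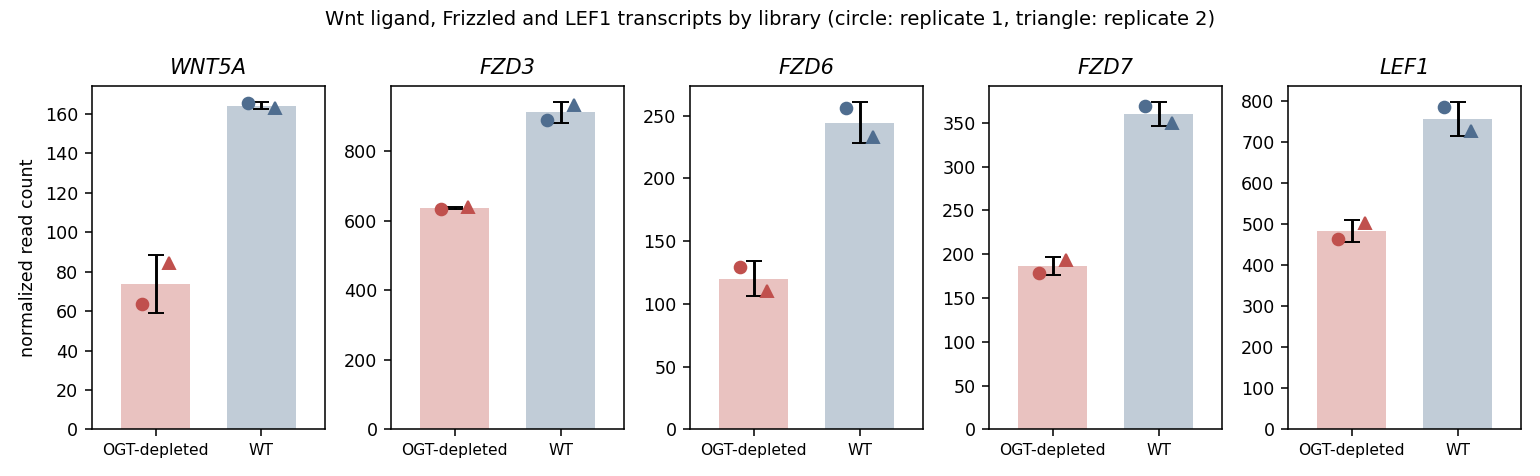
Normalized read counts of the 5 members, with 1 panel per gene, OGT-depleted libraries on the left and WT libraries on the right of each panel. Bars are means, error bars are SD (n = 2), and the axes differ between panels; in every panel both OGT-depleted points lie below both WT points, as the groups are apart in all 426 listed genes, and the lowest WT library over the highest OGT-depleted one ran from 1.40 in FZD3 to 1.93 in WNT5A.

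WNT5A was the only ligand gene in the table and the member with the largest fall by the ratio of means. The gene lies on the minus strand of chromosome 3 (55499743 to 55523973, hg19, ENSG00000114251). It had 63.5 and 84.3 normalized counts in OGT-depleted cells, against 165 and 163 in WT cells. The WT libraries were nearly equal, whereas OGT-depleted replicate 2 was 32.9% above replicate 1. The mean was 45.1% of WT, with a log2 fold change of -1.15 ± 0.19 (SE, edgeR, n = 2 per group). These libraries held 67 and 88 raw reads of WNT5A in OGT-depleted cells, where counting error alone is 12.2% and 10.7% of the value. Without OGT-depleted replicate 1 the log2 fold change was -0.96, and without OGT-depleted replicate 2 it was -1.37.

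The Frizzled genes in the table were FZD3, FZD6 and FZD7, 3 of the 11 genes in the fixed receptor list, which also counts SMO. FZD3 and FZD6 are known for planar cell polarity, and FZD7 is a receptor that also serves the beta-catenin branch and is known from stem cells. FZD6 (plus strand of chromosome 8, 104310661 to 104345094, hg19, ENSG00000164930) had 130 and 110.2 normalized counts in OGT-depleted cells, against 256 and 233 in WT cells. Its lowest WT library was 1.79 times its highest OGT-depleted library. FZD7 (plus strand of chromosome 2, 202899310 to 202903160, hg19, ENSG00000155760) had 179 and 194 normalized counts in OGT-depleted cells, against 369.6 and 350.2 in WT cells. Both FZD7 pairs of replicates were closer to each other than those of FZD6, and the gap between the groups was similar, at 1.81 times. FZD3 (plus strand of chromosome 8, 28351729 to 28431775, hg19, ENSG00000104290) had 633 and 637 normalized counts in OGT-depleted cells, against 890 and 931 in WT cells. It was the member with the most reads and the smallest fall, with tight replicates in both groups. The log2 fold changes were -1.02 ± 0.17 for FZD6, -0.95 ± 0.15 for FZD7 and -0.52 ± 0.12 for FZD3 (SE, edgeR, n = 2 per group).

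Read counts grow with transcript length, so levels between genes were compared as FPKM, reads scaled to the length of each gene and to the counted reads of each library. FZD3, with a deposited length of 13726 bases, lost its lead on that scale. The summed level of the 3 Frizzled genes was 6.73 and 6.96 FPKM in OGT-depleted cells, against 11.9 and 12.1 FPKM in WT cells. The sum therefore stood at 57.1% of WT. FZD3 had a larger share of the sum in OGT-depleted cells, which restates its smaller fall in the same values. Whether the members fell by unequal amounts was not tested. FZD3 held 36.6% ± 0.40 of the summed FPKM in OGT-depleted cells and 29.6% ± 1.71 in WT cells (SD, n = 2). FZD6 held 25.1% ± 2.74 in OGT-depleted cells and 28.7% ± 1.19 in WT cells, and FZD7 held 38.3% ± 2.34 in OGT-depleted cells and 41.7% ± 0.52 in WT cells (SD, n = 2). The FZD7 to FZD3 ratio of FPKM was 1.01 and 1.08 in OGT-depleted cells, against 1.48 and 1.34 in WT cells. The FZD7 to FZD6 ratio overlapped between the groups, at 1.36 and 1.73 in OGT-depleted cells and 1.42 and 1.48 in WT cells.

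**Figure D2:**
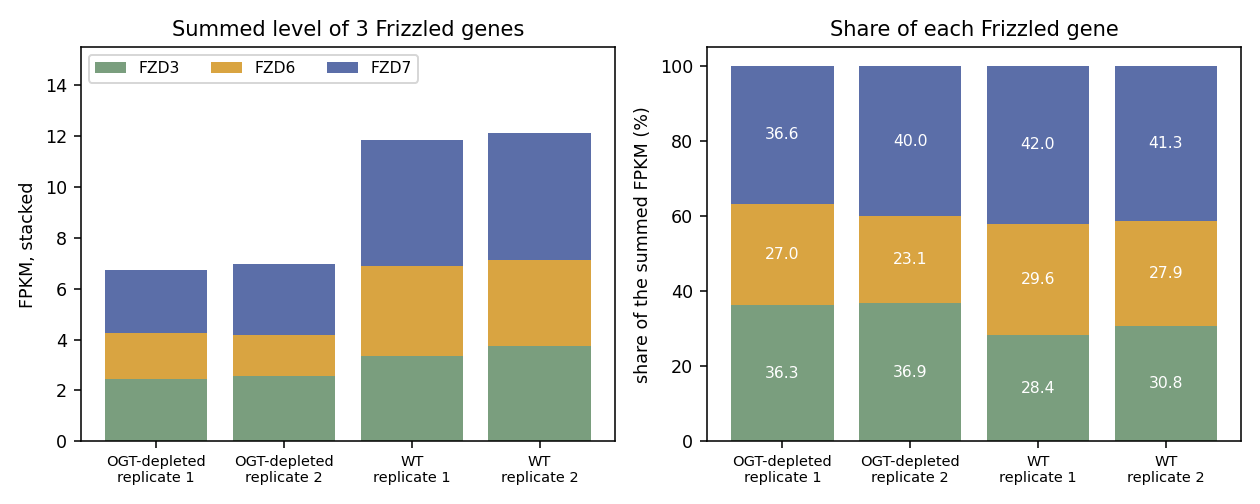
Left, FPKM of FZD3, FZD6 and FZD7 stacked for each library; right, the share of each gene in that sum, in percent. OGT-depleted libraries stand left of WT libraries: the sum was 6.73 and 6.96 FPKM in OGT-depleted cells and 11.9 and 12.1 FPKM in WT cells, and the FZD3 share was 36.3% and 36.9% in OGT-depleted cells and 28.4% and 30.8% in WT cells.

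LEF1 encodes a DNA-binding protein with an HMG box that recruits beta-catenin to target genes. It lies on the minus strand of chromosome 4 (108968701 to 109090112, hg19, ENSG00000138795). LEF1 had 464 and 503 normalized counts in OGT-depleted cells, against 785 and 728 in WT cells. Replicate 2 was 8.40% above replicate 1 in OGT-depleted cells and differed from it by -7.30% in WT cells, and the lowest WT library was 1.45 times the highest OGT-depleted one. The log2 fold change was -0.65 ± 0.13 (SE, edgeR, n = 2 per group). LEF1 is also a lymphoid factor. In the table, which holds 3.24% of all tested genes, was 1 of 15 fixed lymphoid markers. That marker, the granzyme gene GZMA, went the other way, with 132 and 97.8 normalized counts in OGT-depleted cells, against 22.1 and 29.9 in WT cells. The other lymphoid markers are not analysed here, and the part of such cells in the LEF1 result was not tested.

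Among the members, LEF1 had the highest level per length and WNT5A the lowest in both groups. In OGT-depleted cells the order was LEF1 (7.55 ± 0.65 FPKM), FZD7 (2.63 ± 0.22), FZD3 (2.51 ± 0.087), FZD6 (1.71 ± 0.15) and WNT5A (0.67 ± 0.15; SD, n = 2). In WT cells it was LEF1 (11.6 ± 0.16 FPKM), FZD7 (5.00 ± 0.0099), FZD3 (3.55 ± 0.26), FZD6 (3.45 ± 0.092) and WNT5A (1.45 ± 0.042). The neighbours FZD7 and FZD3 overlapped in OGT-depleted libraries, and FZD3 and FZD6 overlapped in WT libraries. All 5 lay below the median level of the listed genes: in WT cells LEF1 stood above 49.8% of them in mean FPKM, FZD7 above 32.6% and WNT5A above 10.3%.

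The promoters of WNT5A and LEF1, the ligand and the nuclear factor that fell together, are shown as the RefSeq reference of GRCh38.p14, from 250 bases before to 50 bases after the transcript start. The table used matched 2 of the 5 members by symbol, and it gives WNT5A a pair of starts, of which the first is printed. These starts were not compared with the ends of the deposited hg19 genes or with reads. They may therefore lie inside the genes and need not be the main starts in these cells. The sequences run 5′ to 3′ on the minus strand, and capitals mark TGTGGT, a core motif bound by RUNX factors.
WNT5A, chr3:55487257-55487556: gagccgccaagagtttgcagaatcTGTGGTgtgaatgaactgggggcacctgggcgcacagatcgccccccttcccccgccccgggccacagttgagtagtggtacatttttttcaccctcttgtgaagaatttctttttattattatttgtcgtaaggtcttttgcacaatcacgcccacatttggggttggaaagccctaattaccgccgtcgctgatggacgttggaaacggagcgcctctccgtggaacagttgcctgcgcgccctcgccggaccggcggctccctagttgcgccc
LEF1, chr4:108166252-108166551: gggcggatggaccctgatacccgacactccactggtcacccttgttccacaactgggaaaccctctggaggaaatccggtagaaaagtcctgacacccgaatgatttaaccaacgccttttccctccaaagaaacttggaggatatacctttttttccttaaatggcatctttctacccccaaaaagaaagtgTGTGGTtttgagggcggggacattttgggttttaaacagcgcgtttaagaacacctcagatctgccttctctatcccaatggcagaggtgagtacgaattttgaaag
Both held 1 TGTGGT, at position -226 from the start in WNT5A and at -57 in LEF1. Of 35116 promoters of this length, 13.1% held it on either strand. The second WNT5A window, 55481349 to 55481648, held none of the motifs searched. These were TGTGGT, the TCF/LEF motif as CTTTGAA or CTTTGAT (6.86% of promoters), the GATA motif as AGATAA or TGATAA (16.3%) and the ETS motif CCGGAAGT (4.14%), on both strands; CTTTGAT and TGATAA can share letters. In the 3 windows only TGTGGT was found, which says that the other letters are not in these windows and nothing about the factors. GC content was 56.3% and 63.7% in the WNT5A windows and 47.0% in that of LEF1, against a median of 58.7% over all promoters.

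The other genes of the pathway were read from a list of 144 ordered by role, and 11 of these were in the table, which holds 3.24% of all tested genes (1.35% lower and 1.89% higher). The list was drawn up with the members known, so nothing is read from these counts. The 5 lower genes were the members, and the 6 others were all higher. By role, 1 of 19 ligands, 3 of 11 Frizzled receptors and 1 of 17 nuclear factors were lower. Higher were 1 of 16 co-receptors and other receptors, 1 of 18 antagonists, 2 of 23 genes of the planar polarity and calcium branches and 2 of 14 target genes. None of 3 secretion genes and none of 23 cytoplasmic transducers, among them CTNNB1, GSK3B and AXIN2, was in the table, so these are not analysed here. The median of the 6 others was 205% of WT.

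RNF43, a ubiquitin ligase that removes Frizzled receptors from the cell surface, had 151 and 181 normalized counts in OGT-depleted cells, against 63.2 and 66.9 in WT cells. MCAM, an adhesion molecule reported to bind WNT5A, had 123 and 124 normalized counts in OGT-depleted cells, against 47.4 and 59.7 in WT cells. The means were 255% of WT for RNF43 and 230.4% for MCAM. TNFRSF19, an orphan TNF receptor known as a target of beta-catenin, had 90.0 and 102.6 normalized counts in OGT-depleted cells, against 31.6 and 22.7 in WT cells. Its ratio, 355% of WT, was the largest of the 11 and rests on 30 and 22 raw reads in the WT libraries. JUN, an AP-1 subunit, had 791 and 685 normalized counts in OGT-depleted cells, against 473 and 472 in WT cells. NFATC1, a transcription factor activated by calcineurin, had 399 and 394 normalized counts in OGT-depleted cells, against 220.1 and 221 in WT cells. PRKCB, a calcium-responsive protein kinase C, had the highest level per length of the 11, 58.1 ± 9.24 FPKM in OGT-depleted cells and 38.9 ± 2.77 FPKM in WT cells (SD, n = 2). It had 7740 and 9305 normalized counts in OGT-depleted cells, against 5655 and 5911 in WT cells. PRKCB had the smallest ratio of the 6, 147% of WT.

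**Figure D3:**
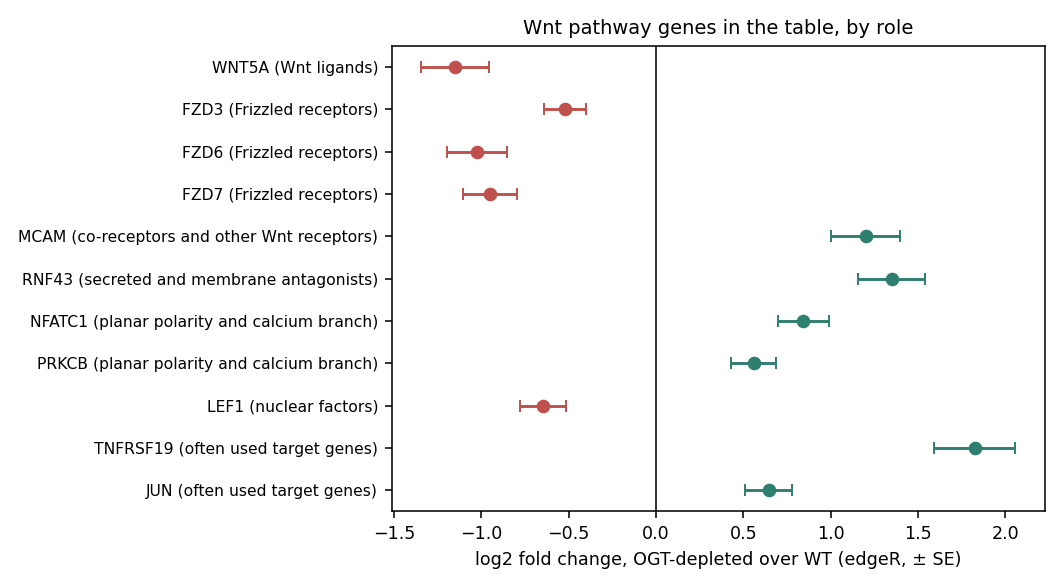
Log2 fold change, OGT-depleted over WT, of the 11 Wnt pathway genes in the table, ordered by role from ligand to target. Points are edgeR estimates and bars are SE (n = 2 per group); the ligand, the Frizzled genes and LEF1 lie below 0, from -1.15 to -0.52, and the 6 other genes lie above 0, from 0.56 to 1.82.

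The authors' deposited log2 fold changes are smaller than the ratios of means, and this changes how the members compare. In the authors' deposited table FZD7, FZD6 and WNT5A have nearly the same value, -0.74 each, and rank 13, 15 and 16 in size among 178 lower genes. By the ratio of means WNT5A ranked 5, FZD6 ranked 11 and FZD7 ranked 16. The adjusted p in the authors' deposited table was 0.00195 for FZD7, 0.00606 for FZD6, 0.0124 for LEF1, 0.0138 for WNT5A and 0.0486 for FZD3. Among the members, WNT5A thus had the largest fall by the ratio of means but not the smallest p, and it had the fewest reads.

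The listed genes nearest to each member on its chromosome went in both directions. Around FZD6, the nearest listed genes on either side were CALB1, 13.2 Mb before, at 177% of WT and MED30, 14.2 Mb after, at 181%. FZD6 was therefore a lower gene between higher ones. WNT5A lay between STAB1 (158% of WT) and GPR27 (189.9%). LEF1 lay between HERC6 (176%) and C4orf3 (172%), 19.6 Mb and 11.1 Mb away. FZD7 lay between lower genes, MARS2 (71.9%) and UNC80 (45.9%), and FZD3 between STC1 (198%) and TEX15 (64.7%). Of the other listed genes of each chromosome, 19 of 24 were higher on chromosome 8, 9 of 12 on chromosome 3, 7 of 11 on chromosome 4 and 12 of 25 on chromosome 2, against 248 of all 426 listed genes.

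The likeness of patterns was measured as the root-mean-square difference of log2(normalized count + 1) over the 4 libraries, each gene centred on its own mean, where 0 is identical. Among the members, FZD3 and LEF1 were the most alike (0.10) and WNT5A and FZD3 the least (0.35). All listed genes were chosen on the difference between the groups, so this measure in part restates the size of that difference. FZD3 and LEF1 had the smallest falls of the members. Of all protein-coding listed genes, those nearest to WNT5A were UNC80 (0.08), SYCP2 (0.11) and CTTNBP2 (0.15). Nearest to FZD6 were CORO6 (0.02), ERAP2 (0.08) and GJA4 (0.09), and nearest to FZD7 were SYCP2 (0.06), SCN9A (0.06) and CCDC150 (0.07). FZD3 was nearest to GPR56, INPP5B and CCNL2 (0.03 each), and LEF1 to ADAMTS3 (0.03), SEC31B (0.03) and TCTEX1D1 (0.04). No member was among the 3 nearest genes of another.

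The replicates of each member were set against counting error. The chi-square of replicate 1 against replicate 2, which averages 1 under counting error alone, was 0.017 to 3.10 over the members in OGT-depleted cells and 0.020 to 2.09 in WT cells. The highest member value was that of WNT5A in OGT-depleted cells. Over all 426 listed genes the mean was far higher, at 25.2 in OGT-depleted cells and 13.5 in WT cells. The replicates thus differed by much more than counting error in the mean over the listed genes, which a few genes can dominate. The median WT normalized count was 360 over the members and 790 over all listed genes, and FZD3, at 910, lay above the latter. Whether read depth accounts for the lower values of the members was not tested.

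The annotation limits some of these counts, since the sources used here do not state whether reads were counted by strand. In GENCODE 29 (GRCh38), opposite-strand genes overlap WNT5A (WNT5A-AS1), FZD6 (BAALC-AS1) and LEF1 (LEF1-AS1), and FZD3 overlaps MIR4288 on the opposite strand and the pseudogene RNA5SP259. FZD7 overlaps no other gene there, and in the deposited hg19 coordinates its span of 3851 bases equals its deposited length, so it holds no intron. Only whole gene spans were compared, and whether the overlaps touch counted exons was not checked. Some reads counted for these members may therefore come from the overlapping genes.

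All 5 members stayed lower under each of the 10 processing alternatives, while their calls, like those of the listed genes at large, depended on the libraries used. The groups did not overlap in any of the 426 listed genes. Leaving out a library could therefore not turn a sign, and nothing is read from the kept signs. The edgeR refit was fitted on the 426 listed genes alone and called 136 of them lower. That is 1.03% of the 13154 genes over which p-values were adjusted, most of which were not refitted. The refit called 5 of 5 members lower, and the same libraries had chosen them, so nothing is read from that count. It was 0 without WT replicate 1 and 0 without WT replicate 2, 3 without OGT-depleted replicate 1 (FZD3 and LEF1 lost) and 4 without OGT-depleted replicate 2 (FZD3 lost). Over all listed genes the lower calls numbered 136 with all libraries, and 21, 5, 97 and 122 in the same order of libraries left out. The refit called all 6 higher genes, among 214 of the 426 listed genes called higher. That is 1.63% of the 13154 genes over which p-values were adjusted. These calls too depended on the libraries used, as did the higher calls over all listed genes.

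**Figure D4:**
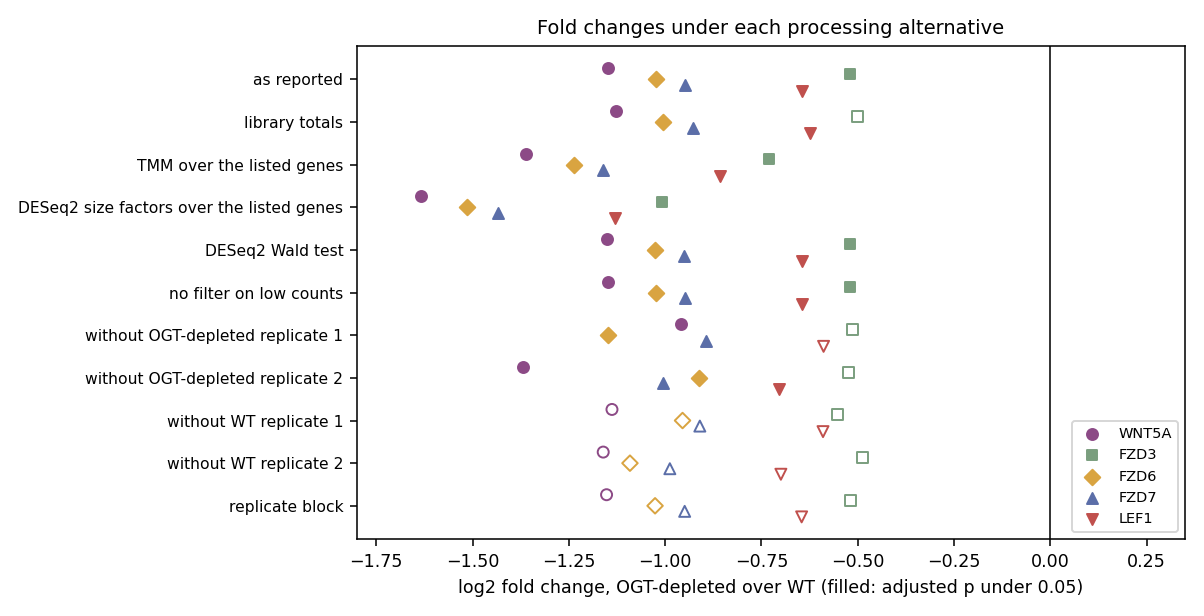
Log2 fold change, OGT-depleted over WT, of the 5 members as reported (top) and under each of 10 processing alternatives. Filled symbols have an adjusted p under 0.05 and open symbols do not; all points lie below 0, from -1.63 to -0.49, and all 5 are open without either WT replicate and with the replicate block.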

How the data were processed

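RNA of 2 OGT-depleted and 2 WT libraries was extracted and prepared with a NEBNext Ultra kit, per the labels. The submitters' processing notes name CASAVA 1.8, STAR 2.5, TopHat, DESeq2 and hg19 but no roles; the sources used here do not state the counter, annotation or strand setting. The authors deposited raw read counts, FPKM values (scaled to gene length and counted reads, per the values) and group means as a normalized signal (counts over size factors, per the values). Per the file headers, the authors also deposited their log2 fold changes, p-values and adjusted p-values. The table lists 426 genes, those called as changed. Columns headed OGTi were matched to titles reading CR_OGT by number, since the authors' mean headed CR_OGT is made from them; the meaning of OGTi is not stated in the labels, and if it were another treatment, every comparison would be of that treatment with WT.

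Size factors were solved from the deposited means (0.950 to 1.06), library totals from the FPKM values and the number of tested genes, 13154, from the adjusted p-values. edgeR 4.0.16 in R 4.3.3 (glmQLFit, glmQLFTest) was fitted with these size factors on all 426 genes, which all passed filterByExpr. Benjamini-Hochberg adjustment ran over 13154 genes, with a threshold of 0.05. The fit was tested on simulated counts with unchanged genes, balanced rises and falls and the same dispersion for all genes. The listed genes were all called as changed, 178 lower and 248 higher, so that test checks the code only. SE is the log2 fold change over the root of F. The SE from DESeq2 was larger for every member, from 0.16 for FZD3 to 0.28 for WNT5A, against 0.12 and 0.19 from edgeR. The common biological coefficient of variation was 9.90%, from genes selected as changed. Alternatives were other scalings, DESeq2 1.42.0, no filter, each library left out and the replicate number as a block. Intervals of counting error (1 over the root of the count) cover counting only. Named genes were the members, the listed genes of the pathway list, OGT, the listed marker genes described and the 3 nearest patterns of each member; neighbours on the chromosome were chosen after their values were seen. The members and lists were chosen with earlier results of these data known.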

Additional observations from a re-analysis of the deposited data

How the results depend on the processing

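The log2 fold changes of the 5 members and of the 6 other Wnt pathway genes kept their sign under all 10 alternatives. The groups did not overlap in any of the 426 listed genes, so nothing is read from the kept signs. DESeq2 left all 11 calls in place. All 426 listed genes passed the filter on low counts, so leaving it out repeated the same fit and could not change a call. With library totals 4 members were called lower (FZD3 adjusted p = 0.0660, edgeR). TMM over the listed genes shifted log2 fold changes by a median of -0.21 and left 3 of the 6 higher genes called; DESeq2 size factors over the listed genes shifted them by -0.49 and left 2 (RNF43 and TNFRSF19). The factors of both come from called genes alone. FZD3 had a log2 fold change of -1.01 and PRKCB of 0.08 with the second. With 1 library left out, between 0 and 4 members and between 0 and 5 of the 6 higher genes were called; 3 members were called without OGT-depleted replicate 1. In these fits the lone library is assumed to vary like the pair. With the replicate block, 0 members and 0 of the 6 others were called, as were 0 of all 426 listed genes, on 1 residual degree of freedom, and members' adjusted p-values ran from 0.0631 to 0.110 (edgeR). Same-numbered libraries deviated together over the listed genes (correlation 0.50), but no label says that a number marks a shared culture or day, so the number is taken as a name. Depth limits TNFRSF19, MCAM, RNF43 and WNT5A most of the 11, at 22, 45, 60 and 67 reads in their shallowest libraries.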

Other observations

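Of the fixed marker lists of other cell types, 4 of 10 mast cell and basophil genes were in the table (3 higher, 1 lower), 3 of 13 erythroid genes (2 higher, 1 lower), and 2 of 12 stromal genes (FBN1 at 180.4% of WT, CDH2 at 57.5%). The table holds 3.24% of all tested genes (1.35% lower and 1.89% higher). Every gene in the sums below had passed the authors' call, so nothing is read from these counts and sums. Stromal cells are a common source of WNT5A, and the summed normalized count of FBN1 and CDH2 was 1649 and 1950 in OGT-depleted cells, against 1455 and 1700.3 in WT cells. The groups overlapped in that sum because the 2 genes moved in opposite directions, each without overlap, and the other stromal markers are not analysed here. The summed count of the mast cell genes was 3983 and 3454 in OGT-depleted cells, against 5696 and 4633 in WT cells. FCER1A alone made that sum lower, at 3014 ± 267 in OGT-depleted cells and 4955 ± 759 in WT cells (SD, n = 2), while TPSAB1, TPSB2 and CPA3 were at 386%, 321% and 229% of WT. The summed count of the erythroid genes was 6143 and 5244 in OGT-depleted cells, against 3721 and 3380 in WT cells, with HBE1 at 332%, CA2 at 156% and KEL at 68.1% of WT. Their part in the Wnt results was not tested.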
